A study of Mus musculus with 34 samples.

Results

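H3K9me2 was compared in the somatic cells of the embryonic gonad between embryos carried with and without vitamin C. The libraries were 3 of vitamin C withdrawn soma and 4 of vitamin C supplied soma, all from female C57BL/6 embryos at day 13.5 that were Gulo-/- and so could not make the vitamin themselves. Their only source was the maternal diet, which had either lacked vitamin C over the early weeks of gestation or held a physiological amount. Soma here means the Oct4GFP-negative cells of a flow sort, that is, whatever in the gonad did not express a germ cell reporter, and 1000 sorted and cryopreserved cells went into each library. Every gene and every repeat family in the soma comparison was taken, which gave 28706 of the 29006 genes and 1482 of the 1493 families measured in any comparison of the series. The wider series has 34 libraries and also covers Oct4GFP-positive primordial germ cells (PGCs) and IgG controls.

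H3K9me2 is dimethylation of lysine 9 on histone H3, a mark of repressed chromatin that is laid down mainly by the paired enzymes EHMT1 and EHMT2. It is removed by Jumonji demethylases, dioxygenases that need iron and oxoglutarate, and vitamin C helps to keep their iron reduced. The TET enzymes, which oxidise methylated cytosine, belong to the same class and also respond to vitamin C. CUT&RUN maps such a mark by tethering a nuclease to an antibody in intact nuclei and sequencing the DNA that is released, so a value over a gene reports how much marked chromatin was recovered there and not how much the gene was transcribed.

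The values were fitted statistics, with no values per library, so levels of each group are approximate means derived from the fitted average and difference, in CPM (read counts scaled to a common library size). The table headers name no antibody, and the tables were taken to be those of the H3K9me2 libraries. This could not be checked from group sizes, since soma also has 3 withdrawn and 4 supplied IgG libraries. Steps of whole reads among the lowest averages gave a geometric mean of 1.51e+06 effective reads per library for genes, which put the median gene at about 15.9 reads per library. The sources used here do not state the direction of the tables. It was taken as withdrawn minus supplied, since of 18 pairs of genes that were 1 read apart 6 differed by the step of a subtracted group of 4 libraries, 0 by that of 3 and the others by neither. The table of families had 0 such pairs, and its direction was taken to be that of the gene table. All 34 libraries are labelled female. In soma 5 single-copy Y-linked genes (Ddx3y, Eif2s3y, Kdm5d, Usp9y and Uty) had averages of 7.02 to 99.4 reads per library. Their signal per kb ran from -3.08 to -1.29 (log2 CPM per kb), against a median of -0.50 over autosomal genes longer than 20 kb and -0.35 over such X-linked genes. Which libraries held the Y-linked reads is not in the tables, and their part in the results was not tested.

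On the deposited scale, most genes and repeat families of soma had a higher H3K9me2 signal with vitamin C withdrawn. A shift shared by all features cannot be told apart from how the libraries were scaled, as set out below. Of the 28706 genes, 19569 (68.2%) rose and 29 (0.101%) fell by limma in the authors' deposited table, with an adjusted p under 0.05. The median gene had a log2 fold change of 1.04, or 2.06-fold. In the table of 1482 repeat families in the authors' deposited data, 1141 (77%) rose and 6 (0.405%) fell, and the median family stood at 1.18, or 2.27-fold. With the 5 residual degrees of freedom of 7 libraries in place of the pooled ones that the authors' deposited tables use, limma's t gave 9217 genes and 999 families that rose and 0 that fell, where 11 genes and 0 families were lower at an unadjusted p under 0.05.

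The median size of the change was similar at all signal levels of genes. Genes were put into 10 equal bins by average log2 CPM. The median log2 fold change was 1.13 in the lowest bin, 1.04 in the fifth and 1.03 in the highest, over an average depth of 2.25, 13.3 and 192 reads per library. The share of genes called higher nevertheless ran from 27.1% in the lowest bin to 92.3% in the highest, while the median standard error ran from 0.78 to 0.23 on the log2 scale. Whether a single gene passed was thus tied to its read depth, and depth to its length, with a Spearman correlation of 0.93 between average log2 CPM and log2 length over 27317 genes, which share their libraries. Of genes in the shortest length bin, up to 2.68 kb, 19.2% rose, and of those in the longest, from 96.5 kb, 97.3% rose, with medians of 0.88 and 1.05. Repeat families differed from this. Their median was 0.82 in the lowest bin and 1.36 in the eighth, but 0.91 in the highest, whose families had a median of 6743 reads per library.

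**Figure D1:**
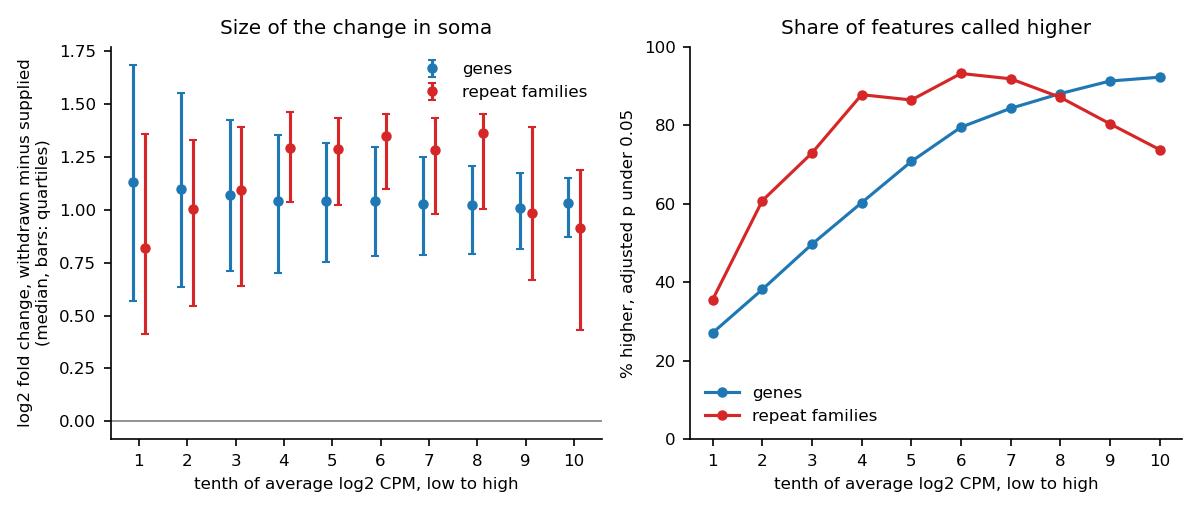
Median log2 fold change in soma, withdrawn minus supplied (left, bars are quartiles), and percent of features called higher at an adjusted p under 0.05 (right), in 10 equal bins of average log2 CPM from low to high, for genes (blue) and repeat families (red). The gene medians lie between 1.01 and 1.13 in all bins while the share called higher runs from 27.1% to 92.3%.

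The shift was shared by the summed signal. Summed over all genes, the derived levels came to 1.45e+06 CPM in withdrawn soma and 747458 CPM in supplied soma, a ratio of 1.94 or 0.96 on the log2 scale. The summed levels of repeat families were 1.43e+06 CPM in withdrawn soma and 748757 CPM in supplied soma, a ratio of 1.91. The CPM of a library sum to 1e+06 when libraries are scaled by their own counts over the same features, so the fitted values carry some other scaling, and the sources used here do not say which. The steps of whole reads gave effective sizes of about 1.48e+06 reads per library in withdrawn soma and 1.54e+06 in supplied soma. On these sizes the gene levels came to about 2.15e+06 reads per library in withdrawn soma and 1.15e+06 in supplied soma. The median gene stood 0.08 above the ratio of the sums on the log2 scale, and the median family 0.25. A change in the mark that all regions share and a difference in how the libraries were scaled cannot be told apart in these tables, and a shift common to all features is 1 quantity measured over 7 libraries. The following results are therefore given both on the deposited scale and relative to the median of the table.

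Relative to the median gene, few single genes stood apart, and most of those that did were lower. By limma's standard errors, 14 genes (0.0488%) lay above the median and 374 (1.3%) below it at an adjusted p under 0.05, and against genes of like average signal the counts were 14 and 357 (1.24%). With 5 residual degrees of freedom both counts relative to the median were 0 by the same test, with 141 genes above and 849 below at an unadjusted p under 0.05. None of 1482 families lay above the median family (0%) by this test, with 7 at an unadjusted p under 0.05, and 130 (8.77%) lay below it at an adjusted p under 0.05. Among families of like average signal 3 (0.202%) lay higher, the young LINE-1 families L1Md_A and L1Md_T and the retrovirus interior IAPEz-int, and 103 (6.95%) lay lower. Those 3 had averages of 12.1 to 14.9 log2 CPM, past the middle of the highest bin of families (11.6). They were set against the median log2 fold change of that bin, 0.91, and not against families of closely matched average. With 5 residual degrees of freedom these counts of families were all 0 by limma, with up to 169 families lower at an unadjusted p under 0.05, so the calls on single features relative to the median that follow rest on the pooled degrees of freedom.

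Genes that carried more signal per kb in PGCs had smaller changes in soma. The PGC values come from other libraries, averaged over both diets, and 25546 genes had a length and a value there. In 10 equal bins of PGC signal per kb, the median log2 fold change in soma stood at 1.27, 1.22, 1.17, 1.12, 1.10, 1.03, 0.96, 0.87, 0.72 and 0.40 from the lowest bin to the highest. The share of genes that rose was 81.2% in the lowest bin and 17.4% in the highest, against 68.2% of all genes. The Spearman correlation over these genes was -0.48, and it was -0.57 over 11987 genes longer than 20 kb and -0.51 over 18565 protein-coding genes. Genes share libraries, mappability and base composition, so these are descriptions. Of the 374 genes below the table median, 364 had a PGC value per kb, and 344 of those (94.5%) fell into the highest of the 10 bins. So did 25 of 27 genes that fell on the deposited scale. Genes in that bin averaged 8.90 reads per library at their median in soma.

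**Figure D2:**
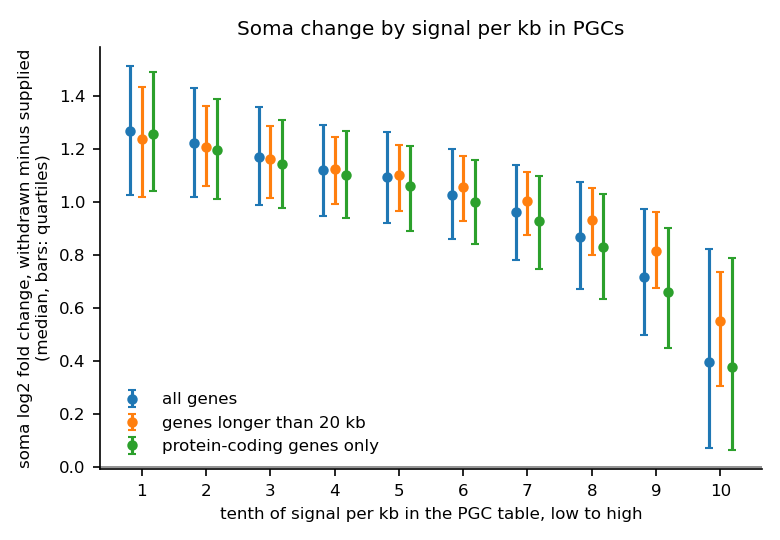
Median log2 fold change in soma, withdrawn minus supplied (bars are quartiles), in 10 equal bins of signal per kb in PGCs, from low to high, for all genes, genes longer than 20 kb and protein-coding genes. The medians of all genes run from 1.27 in the lowest bin to 0.40 in the highest, and those of genes longer than 20 kb from 1.24 to 0.55.

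The signal was spread more evenly over genes in withdrawn soma than in supplied soma. The quartile range of signal per kb over 25546 genes was 0.63 in withdrawn soma and 0.74 in supplied soma, and 0.88 in PGCs (log2 CPM per kb). The Spearman correlation of gene signal per kb with that in PGCs was 0.46 for withdrawn soma and 0.71 for supplied soma. Both soma levels derive from 1 average and 1 difference per gene, and no replicate error can be given for either range. By the derived sizes supplied soma also had fewer reads over genes, and the part of depth in these values was not tested. Over genes longer than 20 kb the ranges were 0.55 in withdrawn soma and 0.61 in supplied soma.

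Among the genes above the median were an RNA component of nuclear speckles, a proliferation antigen, a TET enzyme and an embryonic co-receptor. Erdr1, a gene with near-identical copies at the tip of the X chromosome, had 607 CPM in withdrawn soma and 70.1 CPM in supplied soma. Malat1, an abundant nuclear non-coding RNA, had 127 CPM in withdrawn soma and 17.7 CPM in supplied soma, and Tdgf1, a Nodal co-receptor, had 19 CPM in withdrawn soma and 2.29 CPM in supplied soma. These were changes of 3.11 ± 0.22, 2.84 ± 0.27 and 3.06 ± 0.49 (log2, SE) in the authors' deposited table. Tet1 had 133 CPM in withdrawn soma and 34.4 CPM in supplied soma. Mki67, the Ki-67 antigen of dividing cells, had 53.4 CPM in withdrawn soma and 12 CPM in supplied soma. The antiviral gene Oas1g had 18.2 CPM in withdrawn soma and 3.08 CPM in supplied soma, and the zinc finger gene Zfp534 had 85.6 CPM in withdrawn soma and 20.9 CPM in supplied soma. The remaining 7 of the 14 are predicted or clone-named loci. Of the 13 with a PGC value per kb 3 lay in the highest PGC bin, among them Erdr1 and Malat1. In mm10, Malat1 lies on chromosome 19 (5795690 to 5802672), Tdgf1 on chromosome 9 (110939608 to 110946158) and Mki67 on chromosome 7 (135689784 to 135716450).

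Genes given here from the other end include those with the smallest p relative to the median. Standard errors were smallest at high averages, so this choice favours genes of high signal. Acacb, an acetyl-CoA carboxylase, had 1653 CPM in withdrawn soma and 2324 CPM in supplied soma over the 104 kb of the gene on mm10 chromosome 5 (114146321 to 114250761). Prkdc, the catalytic subunit of the DNA-dependent protein kinase, had 1093 CPM in withdrawn soma and 1381 CPM in supplied soma. Hapln1, a cartilage link protein, had 321 CPM in withdrawn soma and 429 CPM in supplied soma. Their log2 fold changes were -0.49 ± 0.18, -0.34 ± 0.19 and -0.42 ± 0.21 (SE) in the authors' deposited table, of which that of Acacb passed (adjusted p = 0.0127) and those of Prkdc and Hapln1 did not (adjusted p = 0.0974 and 0.0620), and all 3 lay below the median gene. The predicted gene Gm34259, which had the highest average of any gene, had 6842 CPM in withdrawn soma and 9833 CPM in supplied soma over 21.1 kb. Auts2, a regulator of neuronal development, lay 0.89 below the median with 1913 CPM in withdrawn soma and 1726 CPM in supplied soma. Kcnq1, the imprinted potassium channel, lay 1.08 below it with 598 CPM in withdrawn soma and 616 CPM in supplied soma. Whether reads of these genes come from repeats within them was not tested.

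The enzymes that write, erase and read the mark stood near the middle of the table, with the writers lowest. Of 10 measured methyltransferases and partners 7 rose, of 11 demethylases all 11, and of 10 readers 9, against 68.2% of all genes. Their median log2 fold changes were 0.79, 1.02 and 1.10 beside 1.04 over all genes, and that of the 7 readers at or above the median average was 0.90. Ehmt1 had 146 CPM in withdrawn soma and 99.1 CPM in supplied soma. Its partner Ehmt2 had 20.5 CPM in withdrawn soma and 14.7 CPM in supplied soma. The authors' deposited table gave Ehmt1 a rise of 0.56 ± 0.23 (adjusted p = 0.0230) and Ehmt2 a change of 0.48 ± 0.31 (adjusted p = 0.157). Kdm3a and Kdm3b, which remove this mark, rose by 0.84 ± 0.27 and 0.98 ± 0.26, and Kdm4b, which acts mainly on the trimethylated form, by 1.36 ± 0.27, as the authors' deposited table has it. Of the HP1 proteins that bind methylated lysine 9, the authors' deposited table shows Cbx3 higher by 1.70 ± 0.40 and Cbx5 by 0.60 ± 0.27, with Cbx1 at 0.09 ± 0.30 (adjusted p = 0.791). Not 1 of these 31 genes lay apart from the median gene past the threshold, and the lowest such adjusted p was that of Cbx1, 0.0834.

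Genes of DNA methylation and of vitamin C handling rose in 64.3 to 83.3% of cases, against 68.2% of all genes. Of 18 measured TET and DNA methylation genes 15 rose (83.3%), with a median of 0.91. Tet1, with a change of 1.95 ± 0.24, lay above the median gene (adjusted p = 0.0197), and Tet2 at 1.21 ± 0.24 and Tet3 at 0.74 ± 0.25 did not (adjusted p = 0.939 and 0.850), on the log2 fold changes of the authors' deposited table. Differences between these genes were not tested. Zfp57, which protects imprints, had 18.4 CPM in withdrawn soma and 3.82 CPM in supplied soma, and it did not pass relative to the median (adjusted p = 0.144). Of 16 genes of vitamin C synthesis and transport 12 rose (75%), with a median of 1.19. For the transporter genes the authors' deposited table gives 1.34 ± 0.46 for Slc23a1, which rose, and 0.51 ± 0.24 for Slc23a2 (adjusted p = 0.0521). Of 14 prolyl and lysyl hydroxylase genes, whose collagen- and HIF-modifying products also use vitamin C, 9 rose (64.3%), with a median of 0.87. P3h2 had 170 CPM in withdrawn soma and 66.7 CPM in supplied soma, and P3h3 had 17.5 CPM in withdrawn soma and 17.6 CPM in supplied soma.

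Lists of marker genes of the cells in the gonad had medians on both sides of the table median of 1.04. Of 22 genes of ovarian supporting cells 13 rose, with a median of 0.89, and 17 lay below the table median. Of 16 genes of gonad stroma 10 rose, with a median of 0.68, and 15 lay below it. Of 13 genes of testis and steroidogenic cells 8 rose, with a median of 1.12. The other lists had 11 of 12 genes of endothelium risen with a median of 1.05, 10 of 15 of blood with 1.21 and 10 of 12 of mesonephros and coelomic epithelium with 0.99, against 68.2% of all genes. Wt1 and Gata4, which are needed for the early gonad, rose by 0.96 ± 0.27 and 0.89 ± 0.25, while Foxl2, an ovarian determinant with very few reads, had -0.03 ± 0.71 and did not pass, by the authors' deposited table. Foxl2 had 1.92 CPM in withdrawn soma and 1.96 CPM in supplied soma. Sox9, which drives testis formation and was the lowest of its list, had 5.44 CPM in withdrawn soma and 8.19 CPM in supplied soma and lay below the median gene (adjusted p = 0.0170). Vwf, an endothelial clotting factor, did so with 215 CPM in withdrawn soma and 201 CPM in supplied soma (adjusted p = 0.00224). Since the assay reads a repressive mark over all cells of a library, neither presence nor share of a cell type can be read from these levels, and a change within a cell type and a change in the mixture cannot be told apart.

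Germ cell genes, which soma keeps silent, had medians close to or below that of the table. Of 31 germline genes known to be silenced by DNA methylation 25 rose (80.6%) with a median of 1.00, and of 26 meiosis genes 23 (88.5%) with a median of 1.02, against 68.2% and 1.04 over all genes. These lists were read more deeply than the median gene, at 35.3 and 37.9 reads per library at their medians, against 15.9. Tdrd1, of the piRNA pathway, had 37.4 CPM in withdrawn soma and 12.3 CPM in supplied soma. Brdt, a testis bromodomain protein, had 69.7 CPM in withdrawn soma and 63.3 CPM in supplied soma, and of both lists it alone passed the threshold below the median gene (adjusted p = 0.0204). Of 17 genes of PGCs 10 rose (58.8%), at 11.4 reads per library, with a median of 0.91. Pou5f1, the source of the Oct4GFP reporter, had 58.4 CPM in withdrawn soma and 15.2 CPM in supplied soma, 0.91 above the median gene (adjusted p = 0.0847). Lin28a, an RNA-binding regulator of let-7, lay below the median (adjusted p = 0.00470) with a change of -0.25 ± 0.31 in the authors' deposited table. Of 33 imprinted genes 23 rose, with a median of 1.06, from Cdkn1c at -0.08 ± 0.65 to Slc22a3 at 1.63 ± 0.25 in the authors' deposited table.

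**Figure D3:**
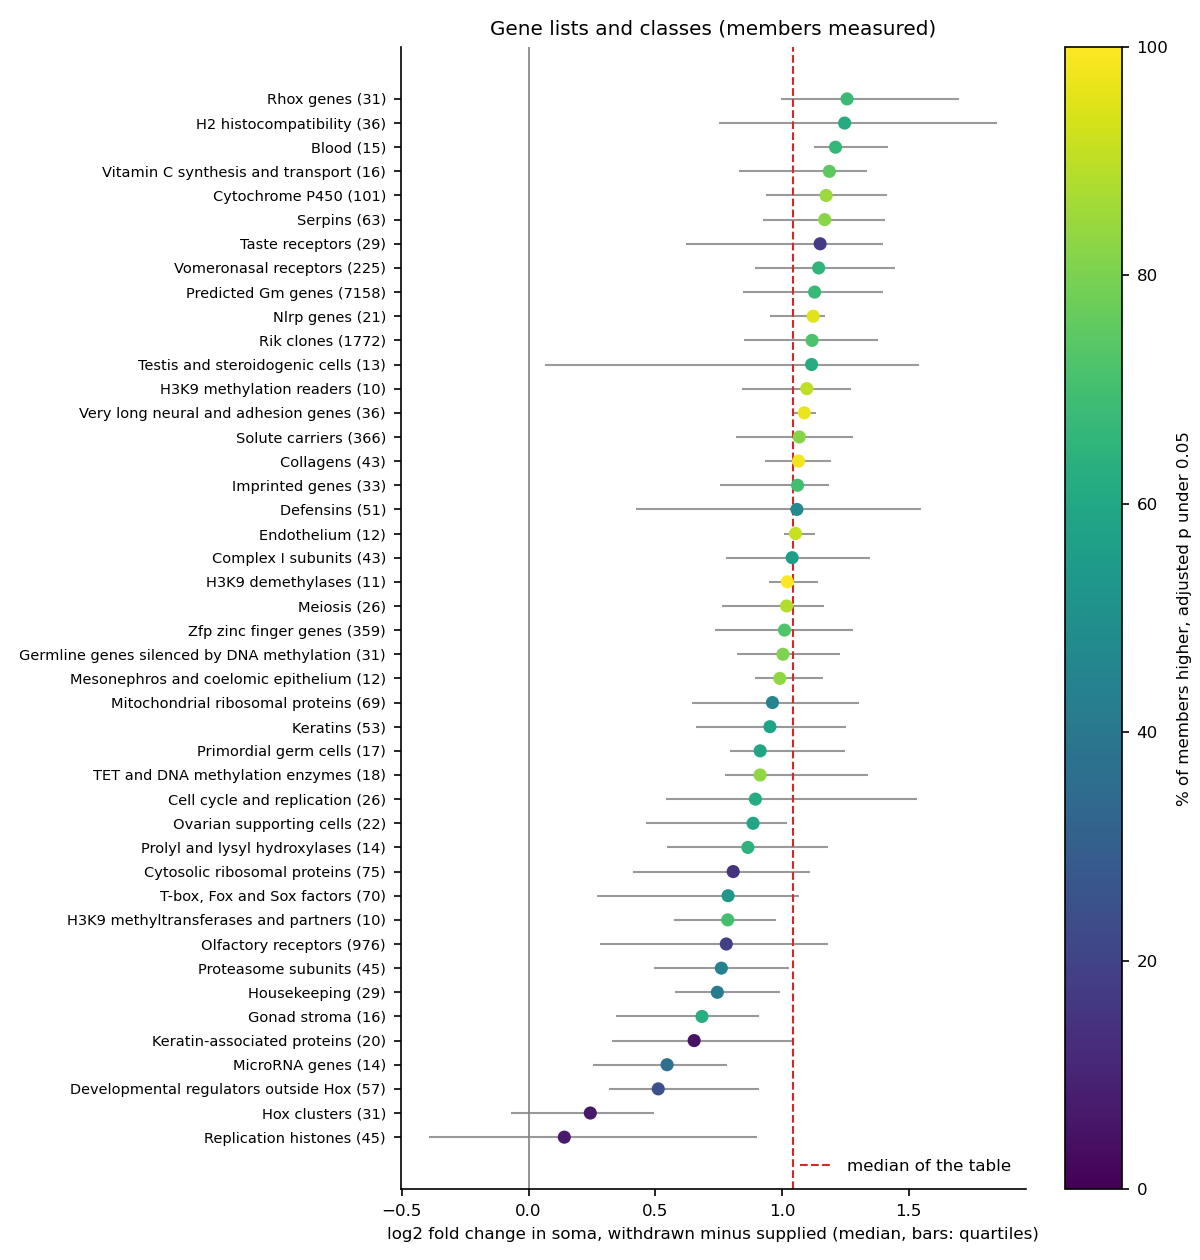
Median log2 fold change in soma, withdrawn minus supplied, of gene lists and classes, with the number of measured members in brackets, quartiles as bars and colour for the percent of members called higher. The dashed line is the table median of 1.04, and the Hox clusters (0.24) and the replication histones (0.14) lie at the low end.

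Lists of early patterning genes had low medians, at low depth. Of 57 developmental regulators outside the Hox clusters 14 rose (24.6%), against 68.2% of all genes, with a median of 0.51, and 50 lay below the table median. The 16 of them at or above the median average had a median of 0.92, only 0.13 below that of the table. Of 31 Hox genes 2 rose, at a median of 0.24, and 30 lay below it, at a depth of 8.2 reads per library at their median. The 5 Hox genes at or above the median average had a median of 0.42. Hoxd11 had 27.1 CPM in withdrawn soma and 29.0 CPM in supplied soma. Hoxb3 had 59.1 CPM in withdrawn soma and 53.5 CPM in supplied soma. Both lay below the median gene (adjusted p = 0.00649 and 0.0275), as did Hoxd9. In the list outside Hox no gene passed this test, with Sox14 at an adjusted p of 0.0614 and Pax6, the eye and forebrain regulator, at 0.26 ± 0.27 in the authors' deposited table. By the authors' deposited table Six2, of nephron progenitors, rose by 1.53 ± 0.34 and Pax5, of B cells, by 1.20 ± 0.23.

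Several classes of short and broadly transcribed genes had medians below that of the table, and others did not. Of 29 housekeeping genes 12 rose (41.4%), against 68.2% of all genes, with a median of 0.75, and Eif4a2, Actb and Pgk1 lay below the median gene (adjusted p = 0.00112, 0.0231 and 0.0407). Actb, cytoplasmic actin, had 10.0 CPM in withdrawn soma and 12.2 CPM in supplied soma. The glycolytic gene Gapdh stood at the other end of this list with 4.68 CPM in withdrawn soma and 1.51 CPM in supplied soma. Of 75 cytosolic ribosomal protein genes 11 rose with a median of 0.81, of 45 proteasome subunits 20 with 0.76, and of 45 replication histones 3 with 0.14. The histone genes had 2.47 reads per library at their median, and the 1 at or above the median average stood at 0.98. Of 43 complex I subunits 24 rose with a median of 1.04, and of 69 mitochondrial ribosomal protein genes 31 with 0.96. The 8 complex I subunits at or above the median average had a median of 0.68. Of 26 cell cycle genes 16 rose and 1 fell, Lig1, the replicative DNA ligase, with 174 CPM in withdrawn soma and 257 CPM in supplied soma.

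Very long genes gave the most precise values. Of 36 neural and adhesion genes with a median of 1827 reads per library 35 rose (97.2%), with a median of 1.09 and quartiles of 1.04 and 1.13. Of all genes 68.2% rose, and 92.3% of those in the highest bin of average log2 CPM. Cntnap2, a neurexin relative, had 3406 CPM in withdrawn soma and 1496 CPM in supplied soma, a change of 1.19 ± 0.18 in the authors' deposited table. By the authors' deposited table Dmd, the dystrophin gene on the X chromosome, rose by 1.07 ± 0.18 and Fhit, a fragile site gene, by 0.76 ± 0.18, and of this list only Auts2 passed the threshold below the median gene, while 11 of the 36 lay below 1.04. Large families at other places in the genome stood close to these values, with medians of 1.14 over 225 vomeronasal receptors, 1.07 over 366 solute carriers, 1.17 over 101 cytochrome P450 genes and 1.07 over 43 collagens, of which 42 rose. The 976 olfactory receptors had a median of 0.78 at 3.06 reads per library, and the 29 of them at or above the median average had a median of 1.04.

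Genes that passed below the median gene had more CG dinucleotides in their promoters, at a median of 12 over 280 genes with a promoter, against 7 over 21261 measured genes. The 11 such genes above the median gene had a median of 4. Both sets had higher averages than all genes, at medians of 5.85 log2 CPM (374 lower genes) and 5.46 (14 higher genes). Average signal also rose with promoter CG, from a median of 2.77 log2 CPM at 0 to 1 CG to 4.18 at 20 or more. The 12 against 7 thus compares genes of high average with all genes, and the part of depth in it was not tested. CG dinucleotides are dense in CpG islands. The promoters run from 250 bases before to 50 after the start, and CG of measured genes were counted in the 250 bases before it. The values above were over genes and not over promoters, so promoter sequence is given here as a feature of the gene. The 250 bases before the start of Hoxd9 and Hoxd11, which had low changes, and of Tdgf1 and Malat1, which had high ones, are printed 5′ to 3′ from RefSeq's GRCm38.p6 sequence, with each CG in capitals. These 4 show how widely single genes vary and do not by themselves show the difference in medians.

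Hoxd9: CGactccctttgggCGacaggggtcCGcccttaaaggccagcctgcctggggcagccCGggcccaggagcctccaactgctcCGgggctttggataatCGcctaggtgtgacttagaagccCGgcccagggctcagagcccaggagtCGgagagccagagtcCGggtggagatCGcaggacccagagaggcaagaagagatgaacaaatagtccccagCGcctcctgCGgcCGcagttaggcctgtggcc
Hoxd11: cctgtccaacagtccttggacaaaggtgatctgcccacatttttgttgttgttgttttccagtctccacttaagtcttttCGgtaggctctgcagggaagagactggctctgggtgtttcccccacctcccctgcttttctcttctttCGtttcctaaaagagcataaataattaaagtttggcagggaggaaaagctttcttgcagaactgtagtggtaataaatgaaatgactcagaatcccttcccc
Tdgf1: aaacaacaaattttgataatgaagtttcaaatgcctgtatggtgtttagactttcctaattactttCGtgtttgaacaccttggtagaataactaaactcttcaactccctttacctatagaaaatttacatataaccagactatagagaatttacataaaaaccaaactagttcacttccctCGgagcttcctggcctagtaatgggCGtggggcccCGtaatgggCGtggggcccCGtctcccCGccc
Malat1: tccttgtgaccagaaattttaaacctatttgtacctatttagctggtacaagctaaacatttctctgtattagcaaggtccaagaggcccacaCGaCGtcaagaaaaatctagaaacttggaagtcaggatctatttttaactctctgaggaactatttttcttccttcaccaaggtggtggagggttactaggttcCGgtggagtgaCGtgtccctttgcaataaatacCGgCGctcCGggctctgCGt

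Hoxd9 lies at chr2:74697513-74697762 on the plus strand with 13 CG, and Hoxd11 at chr2:74679308-74679557 on the plus strand with 2. Tdgf1 lies at chr9:110946159-110946408 on the minus strand with 7 CG, and Malat1 at chr19:5802673-5802922 on the minus strand with 8. The letters CG, which read the same on both strands, occur in 91.7% of all 27025 RefSeq promoters, with a median of 6 copies. The 21261 measured genes were binned by CG in the 250 bases before the start. The median log2 fold change was 1.11 at 0 to 1 CG, 1.11 at 2 to 4, 1.07 at 5 to 9, 0.98 at 10 to 19 and 0.95 at 20 or more. The Spearman correlation was -0.16, weaker than that with PGC signal per kb, and PGC signal per kb itself had a correlation of 0.04 with promoter CG over 19889 genes.

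Repeat families differed by kind. Rodent endogenous retroviruses and their relatives had medians above that of all families, of which 77% rose with a median of 1.18, and SINE B1, tRNA and conserved elements had medians below it. Of 25 IAP families all 25 rose with a median of 1.53, of 205 RLTR families 204 with 1.44, of 54 RMER families all 54 with 1.39, of 29 ORR1 families all 29 with 1.43 and of 20 MT families all 20 with 1.44. Older LTR families had somewhat lower medians, 1.33 over 58 MLT1 families and 1.36 over 103 numbered ancient families. Among families at or above the median average, the medians were 1.31 over 32 MLT1 families and 1.40 over 21 numbered families. Those of the rodent groups above then ran from 1.39 (RMER) to 1.52 (IAP), so the numbered families did not lie below all of them. Within IAP, IAPLTR1a_Mm had 301 CPM in withdrawn soma and 84.4 CPM in supplied soma, and IAP1-MM_I-int had 313 CPM in withdrawn soma and 196 CPM in supplied soma. Their changes were 1.83 ± 0.28 and 0.67 ± 0.27 (log2, SE) in the authors' deposited table. MERVL, ERVL and MT2 families, the first of which is known for its activity in cleavage embryos, rose in 23 of 23 cases, with a median of 1.19.

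Young and ancient LINE-1 groups had different medians. The young L1Md group held 11.3% of the summed CPM of all families. All 6 of its families rose, against 77% of all families, with a median of 1.38 against 1.18. L1Md_A had 37080 CPM in withdrawn soma and 12196 CPM in supplied soma, and L1Md_F2 had 72663 CPM in withdrawn soma and 35253 CPM in supplied soma. Their changes were 1.60 ± 0.20 and 1.04 ± 0.19 in the authors' deposited table. That of L1Md_F2 lay 0.14 below the median family and 0.13 above the median of the highest bin of averages. The other rodent LINE-1 families, with 22.4% of the summed CPM, had a median of 0.95 and rose in 32 of 33 cases. Of 87 ancient mammalian LINE-1 families 56 rose, with a median of 0.92, and 27 lay below the median family at an adjusted p under 0.05, against 8.77% of all families. Relative to families of like average signal, the group medians were 0.46 for L1Md, 0.03 for the other rodent and -0.29 for the ancient LINE-1 families. For averages past the middle of the highest bin, like average meant the median of that bin. L1MA4 had 4832 CPM in withdrawn soma and 4534 CPM in supplied soma, and the authors' deposited table gives it 0.09 ± 0.22 (adjusted p = 0.700).

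SINE families also split. Of 15 B1 families 7 rose (46.7%), against 77% of all families, with a median of 0.43. They derive from 7SL RNA and hold 7.27% of the summed CPM. All 15 lay below the median family, 9 of them at an adjusted p under 0.05, against 8.77% of all families. PB1, an early B1 form, had 5751 CPM in withdrawn soma and 7482 CPM in supplied soma. The 7SLRNA family itself had 2916 CPM in withdrawn soma and 4349 CPM in supplied soma, and the 7SL gene Rn7s1 had 678 CPM in withdrawn soma and 1066 CPM in supplied soma. Reads of B1 copies and of 7SL genes may be shared, since the sources used here do not say how multiply aligned reads were treated. The 8 B4, RSINE1 and ID families all rose with a median of 1.44. RSINE1 had 14146 CPM in withdrawn soma and 5056 CPM in supplied soma. The 5 B2 and B3 families and the 4 MIR families all rose too, with medians of 1.08 and 1.04.

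Groups of short, structured or conserved families had low medians. Of 50 tRNA families 9 rose (18%), against 77% of all families, with a median of 0.49 at 7.59 reads per library, and the 1 of them at or above the median average stood at 1.55. Of the others, 12 of 53 conserved UCON and Eulor elements rose with a median of 0.47, and 5 of 20 structured RNA families with 0.49. The conserved elements are short non-coding sequences kept across vertebrates, and 52 of the 53 lay below the median family at a median depth of 27.9 reads per library. DNA transposons had a median of 1.18, the same as that of all families, with 98 of 102 risen. The 7 satellites all rose, and GSAT_MM, the major satellite of pericentromeric chromatin, had 46721 CPM in withdrawn soma and 17388 CPM in supplied soma.

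**Figure D4:**
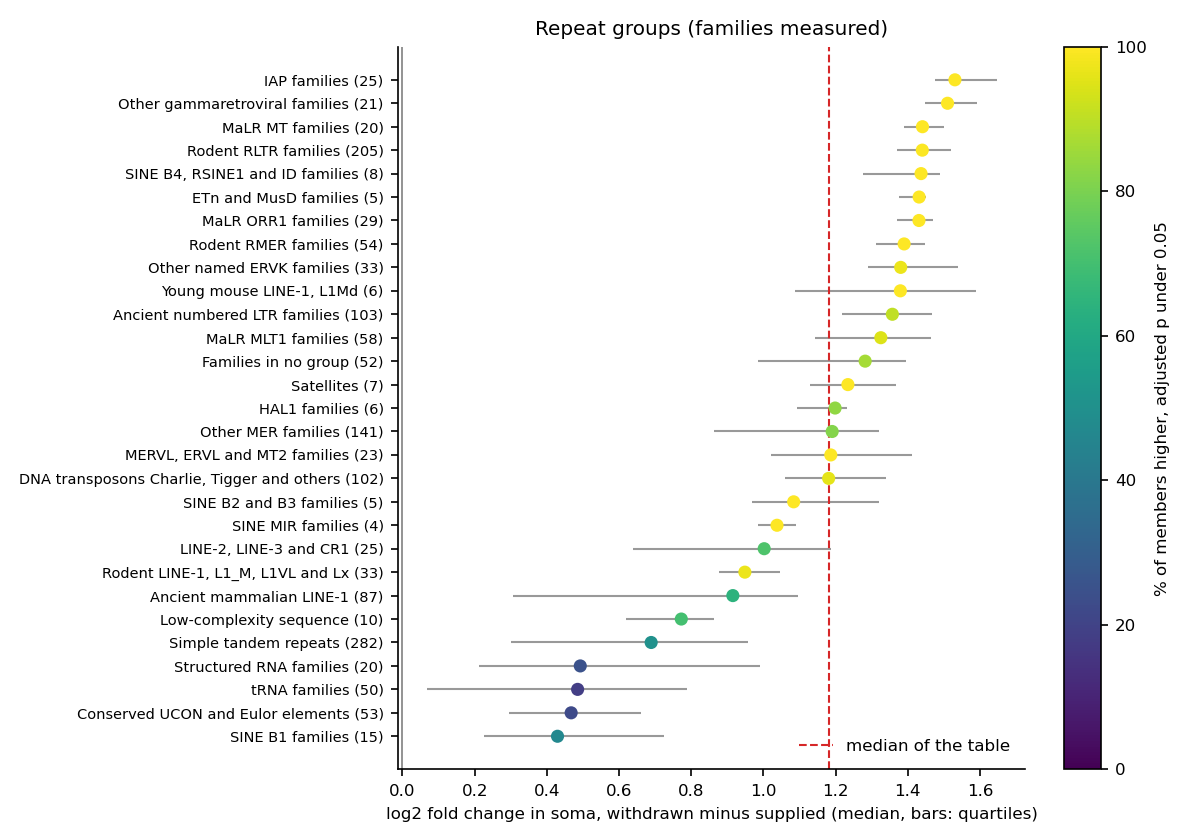
Median log2 fold change in soma, withdrawn minus supplied, of repeat groups, with the number of measured families in brackets, quartiles as bars and colour for the percent of families called higher. The dashed line is the median family at 1.18, with IAP families at 1.53 and SINE B1 families at 0.43.

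Simple tandem repeats gave a check on counting only, because many are listed once for each strand. Both listings of a repeat share their libraries, base composition and scaling. Of 282 simple tandem repeat families 141 rose (50%) and 5 fell, with a median of 0.69, against 77% risen and 0.405% fallen over all families. They formed 135 strand pairs, of which 56 had both members at or above the median average. In these 56 the members differed by a median of 0.05 and at most 0.41 on the log2 scale, while the changes themselves spanned -0.62 to 1.68. (CA)n and (TG)n are such a pair, and (CA)n had 22925 CPM in withdrawn soma and 13999 CPM in supplied soma. (A)n had 5940 CPM in withdrawn soma and 5626 CPM in supplied soma, and its partner (T)n had 5901 CPM in withdrawn soma and 5587 CPM in supplied soma. Both stood at 0.08 ± 0.22 in the authors' deposited table. By base composition of the unit, the medians were 0.22 over 16 families of A and T alone, 0.51 over 58 with up to 34% G or C, 0.74 over 88 with 34 to 50% and 0.76 over 120 with more. Of the 16 families of A and T alone 1 rose and all 16 lay below the median family, although their median depth was 829 reads per library. At an adjusted p under 0.05 12 of the 16 lay below it, against 67 of the 282 simple tandem repeat families and 8.77% of all families, which include these. Most of the 16 are opposite strands of the same repeat, such as (A)n and (T)n, so these are not counts of separate repeats.

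**Figure D5:**
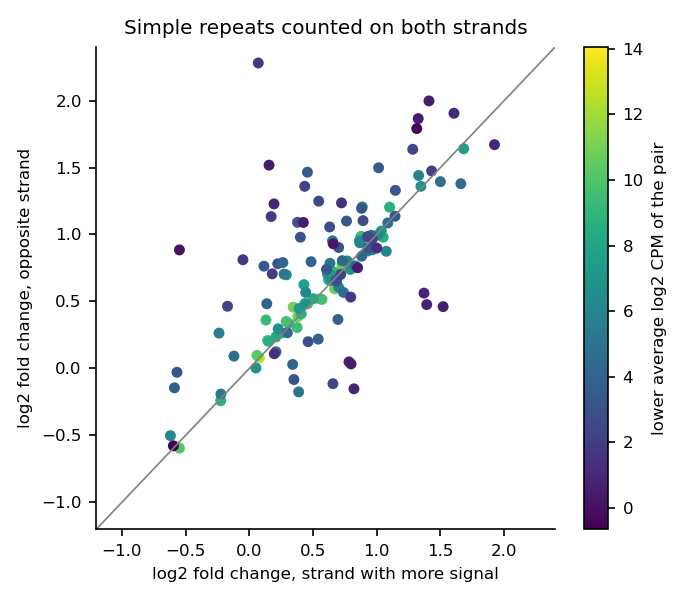
Log2 fold change in soma, withdrawn minus supplied, of 135 simple repeats listed on both strands, with the strand of higher signal on the x axis, its partner on the y axis and the lower average log2 CPM of the pair as colour. Pairs of high average lie on the diagonal, and their values span -0.62 to 1.68.

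Genes of the mitochondrial genome, whose DNA has no histones, also stood higher with vitamin C withdrawn. Of 13 mitochondrial genes 11 rose (84.6%), against 68.2% of all genes, with a median of 1.39 and a range of 1.10 to 2.05. ND5 had 95.6 CPM in withdrawn soma and 29.3 CPM in supplied soma, and COX1 had 72.4 CPM in withdrawn soma and 33.8 CPM in supplied soma. The changes were 1.71 ± 0.25 and 1.10 ± 0.25 in the authors' deposited table, and neither lay apart from the median gene (adjusted p = 0.273 and 0.989). Nuclear copies of mitochondrial sequence may share these reads, and how such reads were counted is not known. Other loci lay near 0 instead. The 32 ribosomal RNA genes, which are 5S copies, had a median of 0.06, and in the authors' deposited table limma called 0 of them, with 0 higher and 0 lower at an unadjusted p under 0.05. The 37 Y-linked genes had a median of 0.05 with 2 risen and 2 fallen, at only 2.78 reads per library at their median. All libraries are labelled female and which of them held Y-linked reads is not known, so this value cannot be read as a change of the mark. Medians of the autosomes and of the X chromosome lay between 0.97 and 1.09.

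The difference between soma and PGCs was tested directly. In PGCs alone limma gave 0 genes and 0 families with an adjusted p under 0.05, and an unadjusted p under 0.05 in 266 genes and 2 families. The sign of the PGC contrast cannot be read from group sizes of 5 and 5. Taken as withdrawn minus supplied, the effect in soma exceeded that in PGCs by a median of 1.07 on the log2 scale over 26721 shared genes. Over 1445 shared families the median was 1.06, and with the PGC sign turned the medians were 0.96 and 1.22. These medians hold the shift shared by most soma features, which cannot be told apart from how the libraries were scaled. With the first sign, by limma's standard errors no single feature differed (0 genes and 0 families in either direction, 0% of those tested). At an unadjusted p under 0.05, 9205 genes and 341 families were higher in soma, and 4 genes and 0 families lower. With each table centred on its median, 0 genes and 0 families differed at an adjusted p under 0.05 by the same test. At an unadjusted p under 0.05, 145 genes were then higher in soma and 377 lower, with 1 family higher and 11 lower. With the sign turned, 256 genes and 397 families were higher in soma at an adjusted p under 0.05.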

How the data were processed

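Per the labels' protocols, CUT&RUN with an H3K9me2 antibody was run on 1000 thawed cells per library and amplified over 18 PCR cycles. Trim Galore 0.4.0, Bowtie2 2.2.5, Picard and the mm10 build are named in the submitters' processing notes. The sources used here do not give the counting over genes and repeats or the scaling of libraries.

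The authors' deposited tables hold voom and limma statistics: a log2 fold change, an average in log2 CPM, a moderated t score, a p-value, its Benjamini-Hochberg adjustment and B, a natural log of odds. Standard errors were the log2 fold change over t. In soma the deposited p-values match a t distribution on 143530 degrees of freedom (genes) and 7410 (families), which pool the 5 residual degrees of freedom over all features. P-values therefore rest on an error pooled over features as if these were independent, and do not measure each feature's own spread between libraries. All features share the same 7 libraries, which the labels do not tie to separate animals.

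Changes relative to the table median, or to features of like average in 20 bins of genes and 10 of families, were tested with the same errors and adjusted over the whole table. The like-average centre was interpolated between bin medians, and past the middle of the lowest or highest bin that bin's median was used. Soma and PGC effects were compared with Satterthwaite degrees of freedom. Group levels were derived from the average and the difference. Gene positions, types and lengths for 27317 genes came from RefSeq GRCm38.p6, 800 of them by a synonym. The code was tested on simulated data. Gene lists, classes and repeat groups were chosen with earlier results of these data known and are described by counts and medians. Named are, for each list, class or group, the member with the highest average and those with the largest and smallest change among members at or above the table's median average, plus the features with the smallest p relative to the median; members of the lists on vitamin C, H3K9 and DNA methylation enzymes and cell types may also be named. Other names were chosen after their values were seen. Depth, 1.51e+06 effective reads per library for genes, was derived from whole-read steps, and PCR reads are not independent molecules. Analyses used Python 3.11.15, pandas 2.3.3, scipy 1.17.1 and limma 3.58.1 for simulation.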

Additional observations from a re-analysis of the deposited data

How the results depend on the processing

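No paired analysis was possible because the tables hold no values per library, and leaving out libraries was not possible for the same reason. With 5 residual degrees of freedom 9217 genes rose in place of 19569 and 0 fell in place of 29. The same setting left 0 genes and 0 families higher or lower relative to the median or to like average, by the same test and with up to 849 genes and 169 families lower at an unadjusted p under 0.05, and 0 families fell. At an adjusted p under 0.01, 6 genes and 0 families fell, with 7 families lower at an unadjusted p under 0.05. At that threshold 5 genes were higher and 240 lower than the median gene, and 5 higher and 225 lower than genes of like average, with 0 families higher (52 at an unadjusted p under 0.05) and 46 lower than families of like average. With a lowess curve as the centre 5 families were higher than those of like average. Relative to another centre 83 families were lower (mean), 76 (median gene) and 44 with 2 higher (ratio of summed CPM, an alternative chosen after seeing the data), in place of 130 and 0. With the PGC sign turned 256 genes and 397 families were higher in soma. These causes were not tested beyond what each setting itself changes. Of 75 medians of lists, classes and repeat groups relative to all features, 6 moved by more than the median standard error against features of like average, and of 69 restricted to members at or above the median average 2 did. The sign turned in 8 and 5 of them, of a size up to 0.23 and 0.70. At this depth a gene of median signal has a standard error of about 0.36 on the log2 scale.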

Other observations

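Neighbouring genes changed alike to a small degree. Windows of 15 adjacent measured genes were taken along each chromosome, with a median log2 fold change of 1.04 over all genes as the base, and the windows given here were chosen after their values were seen. They are the extremes of 26987 windows, whose 5th and 95th percentiles were 0.73 and 1.30. Whether overlapping genes share reads was not tested. The lowest, at -0.10, was a run of 5S ribosomal RNA genes on chromosome 8 (123576074 to 123611833), whose members had few reads. A window of the histone cluster on chromosome 13 from Btn2a2 to Hist1h4d (23477049 to 23581969) stood at -0.02 with 2 of 15 risen, against 68.2% of all genes. Windows that end at Hoxd11 on chromosome 2 and begin at Hoxc12 on chromosome 15 stood at 0.31 and 0.32, each with 5 of 15 risen. The highest, at 1.83 with 14 of 15 risen, began at Serpina9 on chromosome 12 (103996615 to 104404168), and a window of zinc finger and predicted genes on chromosome 4 (146449030 to 147868719) stood at 1.71 with 15 of 15 risen. Others among the highest held major histocompatibility genes from H2-Bl to H2-M11 on chromosome 17 at 1.67 and Rhox genes of the X chromosome at 1.57. Several of these windows had lower averages than the 5S run. Their median log2 CPM was 0.47 in the histone window, 0.84 in the histocompatibility window, 1.66 in the Rhox window and 2.44 in that of Serpina9. It was 2.79 and 3.08 in the Hoxd11 and Hoxc12 windows and 4.29 in that of chromosome 4. Over genes at or above the median average, the Spearman correlation of a gene's change with that of the next gene was 0.17 (13843 pairs), with the tenth gene on 0.06 and with the fiftieth 0.03, in genes that share their libraries. Coordinates are those of RefSeq GRCm38.p6.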
